A study of Mus musculus with 12 samples.

Results

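The genes that build the basement membrane and the receptors that hold cells to it were followed in bulk RNA-seq of mouse embryonic stem cells (ESCs) and of epiblast-like cells (EpiLCs). The set was defined by gene symbol, and it was chosen with earlier results of these data known. It holds every laminin chain, every integrin α and β chain, and *Nid1*, *Nid2*, *Hspg2*, *Agrn*, *Npnt*, *Fn1* and *Dag1*. The rule found 44 of the 57180 genes in the deposited tables, namely 18 integrin α chains, 8 integrin β chains, 11 laminin chains and 7 other genes. The test took the 42 whose counts summed to 10 or more. The remaining 2, the collagen receptor chain *Itga2* and the leukocyte chain *Itgax*, had 8 counts and 1 count in total and were not.

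All 12 libraries came from derivatives of the male E14J ESC line on a 129/Ola background. A TetO promoter in the *Tigre* locus drives a CRISPR interference repressor when doxycycline (DOX) is given, and the line is a single chosen clone. Neg cells carried scramble guide RNAs, and 3×KD cells carried guide RNAs against *Pcx*, *Me1* and *Me2* (pyruvate carboxylase and a pair of malic enzymes), in both cases from a piggyBac vector under hygromycin selection. The knockdown was made to ask what the cycling of pyruvate through these enzymes contributes to the exit from naive pluripotency. ESCs were kept in N2B27 with 2iLif, and EpiLCs were sampled on day 2 in FAX medium, which holds activin A, Fgf2 and XAV939. All cultures stood on fibronectin-coated plates, so exogenous fibronectin was common to the 4 groups, each of 3 libraries. The labels do not name DOX. The study's methods give DMSO or DOX from seeding to harvest. Its figure legend on metabolic gene expression names DOX for Neg and 3×KD cells of both states. All cell lines were kept under low oxygen. Neg and 3×KD each stand for a single guide-carrying line, so the knockdown and any other difference between the lines cannot be told apart. The study's methods speak in general of biological replicates, while the labels of these libraries do not say whether they came from separate cultures, so p-values measure the spread between these libraries and may rest in part on technical spread.

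Basement membranes are thin sheets of matrix under epithelia and around the early epiblast. Laminins are trimers of an α, a β and a γ chain that polymerise at the cell surface, nidogens tie the laminin sheet to collagen IV, and the heparan sulfate proteoglycans perlecan (*Hspg2*) and agrin (*Agrn*) bind both. Cells hold laminin through integrins, which are pairs of an α and a β chain, and through dystroglycan (*Dag1*), whose sugar chain binds laminin, agrin and perlecan. In the mouse embryo, laminin assembly is needed for the epiblast to polarise.

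Library totals lay between 11221023 and 19652197 estimated counts. The 3 targeted genes were lower in every 3×KD library than in any Neg library of the same state, at between 45.3% and 53.9% of the Neg mean. A field of the labels gives ESCs to all Neg libraries and EpiLCs to all 3×KD libraries, whereas the titles give both states to both lines. The titles were followed. All 12 naive pluripotency genes on the list used here were called lower in EpiLCs than in ESCs in each line, and of 10 formative genes 10 were called higher in Neg and 9 in 3×KD. Values below are CPM, counts scaled to the library size after TMM normalization, which compare a gene between libraries, and levels of different genes are compared only as TPM, which are scaled by transcript length. A gene is called when the adjusted p of edgeR's quasi-likelihood test is under 0.01 and the absolute log2 fold change exceeds 0.58, a fold of 1.49.

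Against Neg ESCs, 14 of the 42 members were called higher in 3×KD ESCs, where 8.5% of the 25446 genes tested were. None was called lower, against 6.76% of all genes. At an unadjusted p under 0.05 edgeR placed 4 members lower, and DESeq2 called 1, *Lama1*. Against Neg EpiLCs, 12 members were called higher in 3×KD EpiLCs and 1, again *Lama1*, was called lower, where 7.88% and 5.35% of all genes were. The median log2 difference over the 42 members was 0.52 in ESCs and 0.43 in EpiLCs, while over all genes tested it was 0.03 in each. A mean of 1 CPM or more was reached by 34 of the 42 members and by 15032 of the genes tested. Within that range 13.1% of genes were called higher in ESCs and 12.3% in EpiLCs, and 13 and 11 of the 34 members were.

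**Figure D1:**
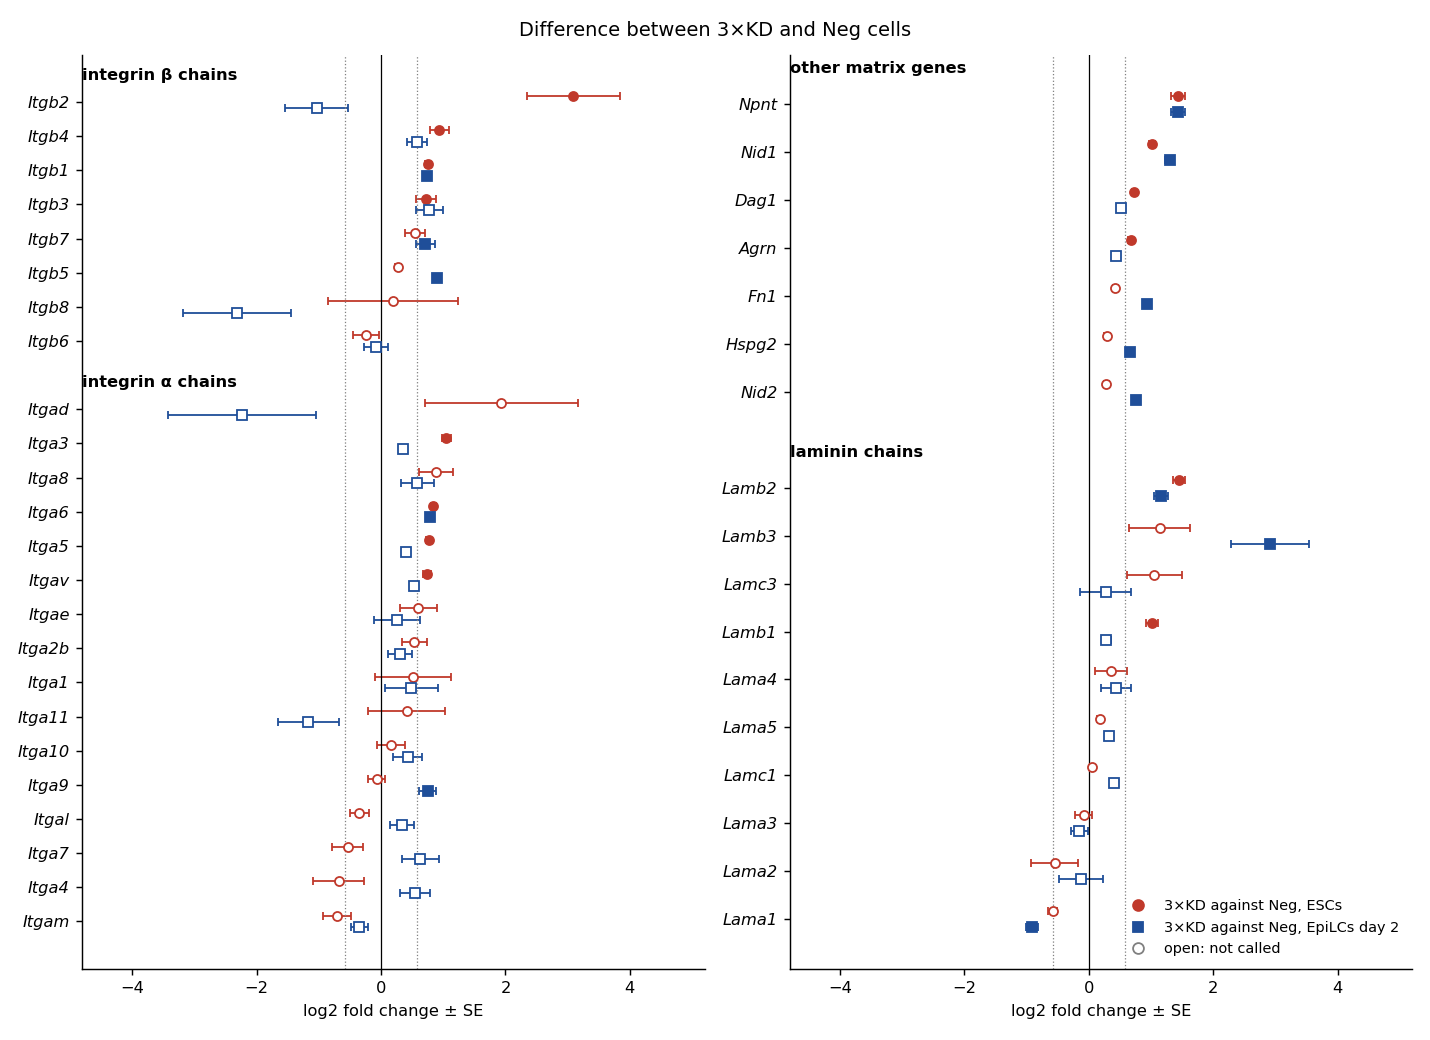
Log2 fold changes (horizontal axis, bars ± SE) of 3×KD against Neg cells in ESCs (red circles) and in EpiLCs day 2 (blue squares) for the members tested, 1 apart, with filled symbols for members called and dotted lines at the fold limit of ±0.58. Of the 14 filled red and 13 filled blue symbols, all lie to the right of 0 except that of *Lama1* in EpiLCs.

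Summed, the members took a larger share of the RNA in 3×KD cells. They held 0.216% ± 0.0057 (SD, n = 3) of the counts in Neg ESCs and 0.294% ± 0.0032 in 3×KD ESCs. In EpiLCs they held 0.132% ± 0.0047 in Neg and 0.204% ± 0.0086 in 3×KD cells. The 3×KD libraries lay above the Neg libraries of their state without overlap. Fibronectin, the member with the most counts in ESCs, made up 21.9% of the rise in ESCs and 13.7% of that in EpiLCs, so most of each difference came from other members. In bulk RNA, more cells that express a gene and more RNA per cell cannot be told apart.

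The members *Itga6*, *Itgb1*, *Lamb2*, *Nid1* and *Npnt*, 5 in all, were called higher in 3×KD cells in both states. Of all genes tested, 4.41% were. A further 12, which brings the count to 17, had an adjusted p under 0.01 and a higher mean in 3×KD cells in both states but missed the fold limit in at least 1 of them, a criterion that 9.63% of all genes met with or without the fold limit.

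*Itga6* (ENSMUSG00000027111, chr2:71575960-71689757) encodes the integrin α6 chain, which pairs with β1 or β4 to bind laminin. Its level was 65.1, 69.9 and 65.7 CPM in Neg against 117, 122 and 121 in 3×KD ESCs, and 96.9, 96.2 and 100.1 in Neg against 175, 164 and 168 in 3×KD EpiLCs. Every 3×KD library lay above every Neg library of the same state. The log2 difference was 0.84 (SE 0.039, adjusted p = 6.71e-11) in ESCs and 0.79 (SE 0.037, adjusted p = 9.46e-11) in EpiLCs.

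*Itgb1* (ENSMUSG00000025809, chr8:129411876-129460618) encodes the β1 chain shared by most laminin, collagen and fibronectin receptors. It stood at 56.99, 57.5 and 58.8 CPM in Neg against 97.5, 95.1 and 99.9 in 3×KD ESCs, and 60.9, 61.7 and 64.2 in Neg against 107, 100 and 103 in 3×KD EpiLCs. The Neg groups of the 2 states were close to each other and so were the 3×KD groups, with a wide gap between the lines. The difference was 0.75 (SE 0.039, adjusted p = 2.46e-10) in ESCs and 0.73 (SE 0.039, adjusted p = 3.5e-10) in EpiLCs.

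*Lamb2* (ENSMUSG00000052911, chr9:108356935-108367729) encodes the laminin β2 chain, known from the basement membranes of the kidney glomerulus and the neuromuscular junction. It was measured at 14.5, 12.04 and 15.5 CPM in Neg against 37.05, 37.2 and 40.7 in 3×KD ESCs, and 6.78, 6.11 and 5.18 in Neg against 13.6, 14.6 and 12.2 in 3×KD EpiLCs. The 3×KD EpiLCs lay within the range of the Neg ESCs, and the other groups were apart. The difference was 1.45 (SE 0.098, adjusted p = 4.95e-09) in ESCs and 1.16 (SE 0.12, adjusted p = 4.35e-07) in EpiLCs. With offsets for the mean transcript length of each library, as tximport supplies them, the ESC value of 1.29 missed the limit at an adjusted p of 0.0108, and the EpiLC value grew to 2.55.

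*Nid1* (ENSMUSG00000005397, chr13:13612071-13686860) encodes nidogen-1, the link between laminin and collagen IV. It reached 80.8, 83.9 and 87.3 CPM in Neg against 173, 168 and 169 in 3×KD ESCs, and 12.1, 13.96 and 13.5 in Neg against 35.4, 30.2 and 31.5 in 3×KD EpiLCs. All 4 groups were separate, with the 3×KD ESCs highest and the Neg EpiLCs lowest. The difference was 1.01 (SE 0.052, adjusted p = 1.82e-10) in ESCs and 1.30 (SE 0.067, adjusted p = 2.31e-10) in EpiLCs.

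*Npnt* (ENSMUSG00000040998, chr3:132587506-132656257) encodes nephronectin, a matrix ligand of the integrin α8β1. Its counts gave 3.72, 3.92 and 3.82 CPM in Neg against 10.2, 9.82 and 11.04 in 3×KD ESCs, and 3.39, 3.36 and 3.86 in Neg against 9.06, 9.85 and 9.803 in 3×KD EpiLCs. The lines were apart in each state, and within each line the states overlapped. The difference was 1.43 (SE 0.11) in ESCs and 1.44 (SE 0.11) in EpiLCs. *Itga8*, the chain of its known receptor, averaged at most 2.41 CPM in a group and was not called in any comparison of the main fit. Its 3×KD difference in ESCs, 0.89 (SE 0.27, adjusted p = 0.0149), passed the fold limit and missed the p limit. Without the filter or with robust estimation that difference was called.

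Of these 5 genes, *Lamb2* and *Nid1* were also called lower from ESCs to EpiLCs in both lines, and *Itga6*, *Itgb1* and *Npnt* were not. The 200 bases before the start of the canonical transcript are shown for them and for *Lamb1*, which rose from ESCs to EpiLCs where *Lamb2* fell. They were read from GRCm39 with GENCODE vM39 and are written 5′ to 3′ on the strand of the gene, with capitals for matches on either strand to the TATA box TATAAA, the GC box GGGCGG, the CCAAT box, the AP-1 motif TGANTCA and the E-box CACGTG (the last pair read alike on both strands).
*Itga6* (chr2:71617019-71617218, plus strand): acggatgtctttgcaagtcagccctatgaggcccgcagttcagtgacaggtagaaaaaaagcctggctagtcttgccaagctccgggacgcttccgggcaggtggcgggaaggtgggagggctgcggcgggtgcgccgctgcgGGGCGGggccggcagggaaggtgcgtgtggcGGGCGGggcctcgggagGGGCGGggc
*Itgb1* (chr8:129411676-129411875, plus strand): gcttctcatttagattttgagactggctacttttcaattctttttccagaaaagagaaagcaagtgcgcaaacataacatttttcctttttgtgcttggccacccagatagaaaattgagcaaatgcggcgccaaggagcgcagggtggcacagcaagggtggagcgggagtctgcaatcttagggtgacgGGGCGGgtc
*Lamb2* (chr9:108356849-108357048, plus strand): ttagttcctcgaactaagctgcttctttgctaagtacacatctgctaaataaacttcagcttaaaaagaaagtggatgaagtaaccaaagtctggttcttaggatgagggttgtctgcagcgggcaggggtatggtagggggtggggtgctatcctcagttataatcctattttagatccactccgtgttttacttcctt
*Nid1* (chr13:13611936-13612135, plus strand): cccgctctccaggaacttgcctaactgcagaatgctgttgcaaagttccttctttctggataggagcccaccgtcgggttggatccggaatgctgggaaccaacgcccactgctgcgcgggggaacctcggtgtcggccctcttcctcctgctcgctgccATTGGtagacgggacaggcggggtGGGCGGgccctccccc
*Npnt* (chr3:132656258-132656457, minus strand): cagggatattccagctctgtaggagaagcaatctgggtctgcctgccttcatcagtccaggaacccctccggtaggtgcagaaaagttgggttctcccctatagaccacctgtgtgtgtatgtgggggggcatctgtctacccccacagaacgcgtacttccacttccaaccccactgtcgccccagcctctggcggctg
*Lamb1* (chr12:31315092-31315291, plus strand): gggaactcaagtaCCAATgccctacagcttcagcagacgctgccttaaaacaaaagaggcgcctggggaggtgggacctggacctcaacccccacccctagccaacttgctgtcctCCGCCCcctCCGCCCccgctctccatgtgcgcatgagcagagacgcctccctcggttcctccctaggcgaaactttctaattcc

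The windows shared few of these motifs. GGGCGG, the GC box, was in those of *Itga6* (3 matches), *Itgb1*, *Nid1* and *Lamb1* and is held by 34.8% of 21770 windows of protein-coding genes. CCAAT was in those of *Nid1* and *Lamb1* against 32.3% of all windows. No window of the 6 held TATAAA (9.57% of all), TGANTCA (4.93%) or CACGTG (5.43%). Those of *Lamb2* and *Npnt* held no match to any of the 5 motifs. Their GC content ran from 43% in *Lamb2* to 70% in *Itga6*, around a median of 54.5% over all windows. Over all 44 members, 21 windows held GGGCGG. A match is a string of letters and not a measured binding site.

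**Figure D2:**
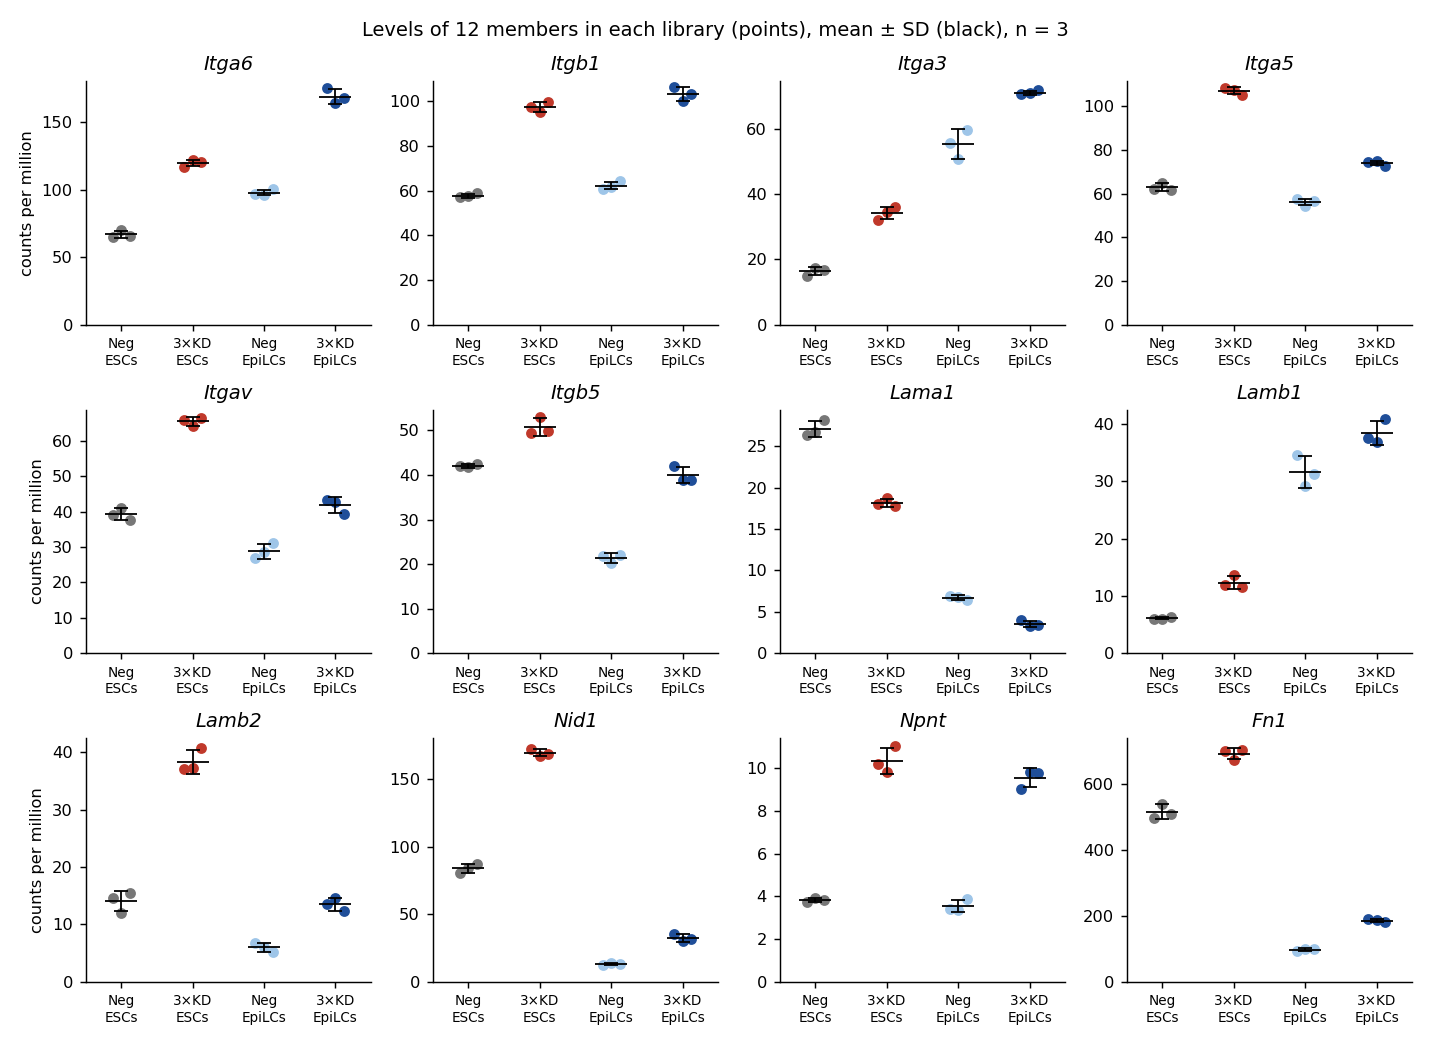
CPM (vertical axes, each from 0) of 12 members in the 12 libraries (points), with group means ± SD in black and n = 3 per group. The 3×KD libraries lie above the Neg libraries of their state in every panel but that of *Lama1*, where they lie below.

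The laminin α chain *Lama1* was the only member of the set that edgeR called lower in 3×KD cells, in EpiLCs. *Lama1* (ENSMUSG00000032796, chr17:68004223-68129642) encodes the α1 chain of the laminin of early embryos, and *Lama5* the α5 chain found in most epithelia. *Lama1* stood at 26.4, 26.7 and 28.2 CPM in Neg against 18, 18.7 and 17.8 in 3×KD ESCs, and 6.96, 6.85 and 6.38 in Neg against 3.97, 3.26 and 3.43 in 3×KD EpiLCs. The 4 groups were separate and each step, from Neg to 3×KD and from ESCs to EpiLCs, went down. The 3×KD difference was -0.58 (SE 0.073, adjusted p = 6.56e-06) in ESCs, just inside the fold limit and therefore not called, and -0.92 (SE 0.099, adjusted p = 1.1e-06) in EpiLCs. Under RLE factors, library size alone, filterByExpr, a fit of the 2 groups or DESeq2 the ESC value passed the limit. *Lama5* was between 185 and 268 CPM in every library. Its 3×KD differences, 0.17 (SE 0.044) and 0.33 (SE 0.043), passed the p limit and not the fold limit. The ratio of *Lama1* to *Lama5* within a library was 0.137 ± 0.00583 in Neg against 0.081 ± 0.000564 in 3×KD ESCs, and 0.0333 ± 0.00185 in Neg against 0.014 ± 0.000873 in 3×KD EpiLCs (CPM over CPM, mean ± SD, n = 3).

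The β chains moved in opposite directions between the states. *Lamb1*, the β1 chain of most embryonic laminins, stood at 5.94, 6.06 and 6.27 CPM in Neg against 11.9, 13.7 and 11.5 in 3×KD ESCs, and 34.6, 29.1 and 31.2 in Neg against 37.6, 36.8 and 40.8 in 3×KD EpiLCs. The groups were separate and climbed in the order given. From ESCs to EpiLCs it was called higher, at 2.37 (SE 0.09, adjusted p = 1.02e-12) in Neg and 1.64 (SE 0.08, adjusted p = 4.33e-11) in 3×KD cells, while *Lamb2* was called lower, at -1.22 (SE 0.12, adjusted p = 1.41e-07) and -1.51 (SE 0.098, adjusted p = 1.61e-09). With the length offsets the *Lamb2* value was -2.26 in Neg and missed the p limit in 3×KD cells (-0.998, adjusted p = 0.0337). In 3×KD ESCs both β chains were called higher than in Neg ESCs, *Lamb1* by 1.01 (SE 0.096, adjusted p = 2.46e-07). In EpiLCs the *Lamb1* difference was 0.28 (SE 0.074), under the fold limit. The ratio of *Lamb2* to *Lamb1* CPM moved from 2.303 ± 0.272 in Neg ESCs to 0.191 ± 0.0224 in Neg EpiLCs, and from 3.13 ± 0.408 to 0.352 ± 0.0485 in 3×KD cells.

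On the length-scaled TPM the order of the β chains depended on short transcripts. *Lamb2* exceeded *Lamb1* in Neg ESCs, 5.8 ± 2.26 against 0.728 ± 0.108 TPM (mean ± SD, n = 3), and lay below it in Neg EpiLCs, 1.42 ± 0.482 against 4.44 ± 0.179. The same order held when only transcripts of at least 1000 bases were summed, with 1.48 ± 0.0911 against 0.728 ± 0.108 and 0.809 ± 0.0745 against 4.396 ± 0.134. In 3×KD EpiLCs it did not: *Lamb2* was the higher of the pair over all transcripts (7.11 ± 0.677 against 5.29 ± 0.58) and the lower over the long ones (1.51 ± 0.283 against 4.69 ± 0.533). A single transcript of 332 bases, *Lamb2-204*, took up to 66.9% of the *Lamb2* TPM of a library.

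**Figure D3:**
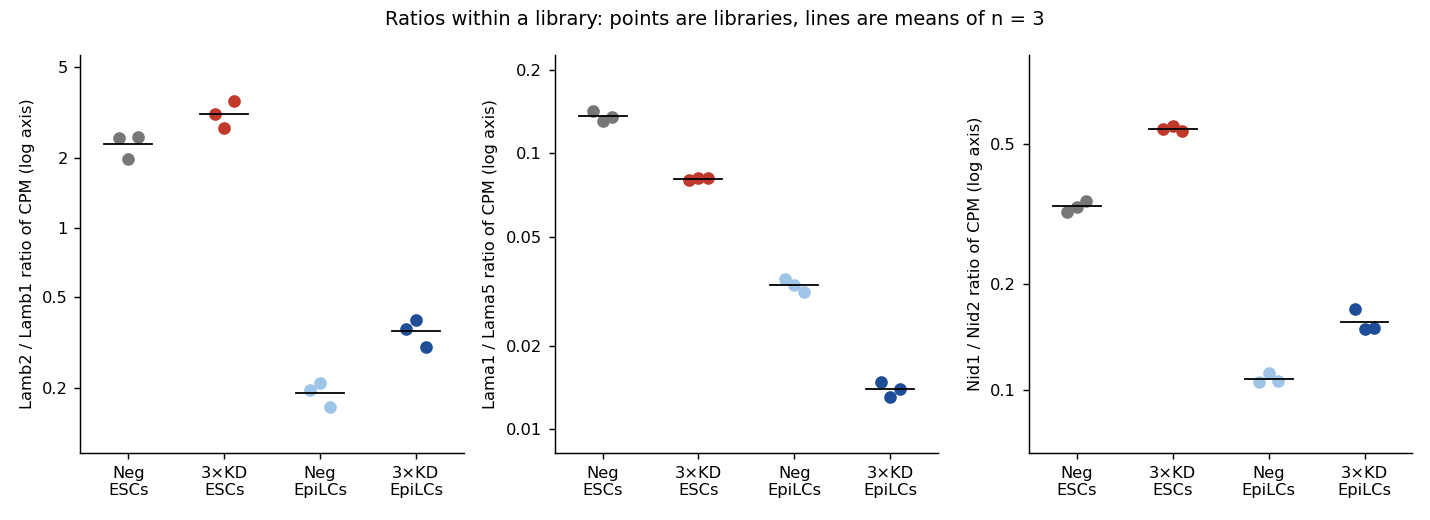
Ratio of the CPM of *Lamb2* to *Lamb1*, *Lama1* to *Lama5* and *Nid1* to *Nid2* within each library (vertical log axes), with points for the 3 libraries of a group and lines for the means. In the left panel the ESC libraries lie between 1.99 and 3.54 and the EpiLC libraries at or below 0.396.

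The γ1 chain *Lamc1* changed less between the states than *Lamb1* and *Lamb2*. Its change from ESCs to EpiLCs was -0.57 (SE 0.039, adjusted p = 2.69e-09) in Neg and -0.22 (SE 0.039) in 3×KD cells. Both missed the fold limit, though with library size alone the Neg value was called. *Lamc1* was between 222 and 237 CPM in the ESC libraries, 148 and 154 in Neg EpiLCs and 191 and 212 in 3×KD EpiLCs. The 3×KD difference was 0.05 (SE 0.039) in ESCs and 0.40 (SE 0.039) in EpiLCs, and neither was called. *Lamb3*, at or under 1.23 CPM in every library, was called higher in 3×KD EpiLCs by 2.91 (SE 0.63) over Neg libraries at 0.0616 to 0.201 CPM, a call that was lost with the length offsets (1.98, adjusted p = 0.256). *Lama3* lay between 5.32 and 8.15 CPM, and *Lama2*, *Lama4* and *Lamc3* at or below 4.34 CPM, with no call in any of the 4 comparisons of 2 groups.

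Of the 7 other genes, all had a higher mean and an adjusted p under 0.01 in 3×KD cells in both states. In ESCs 4 of the 7 passed the fold limit and in EpiLCs 5 did, where 8.5% and 7.88% of all genes were called higher. Fibronectin, *Fn1* (ENSMUSG00000026193, chr1:71624673-71692419), which forms fibrils and is bound by α5β1 and αv integrins, was measured at 497, 541 and 510.4 CPM in Neg against 701, 674 and 705 in 3×KD ESCs, and 92.8, 101 and 98.04 in Neg against 190.2, 188 and 180.3 in 3×KD EpiLCs. Both EpiLC groups lay far below both ESC groups, and within each state the 3×KD libraries were the higher. The 3×KD difference was 0.42 (SE 0.039, adjusted p = 1.51e-07) in ESCs, under the fold limit, and 0.94 (SE 0.042, adjusted p = 4.48e-11) in EpiLCs.

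*Nid2*, the second nidogen, stood at 252, 253 and 253 CPM in Neg against 313, 299 and 311 in 3×KD ESCs, and 115, 126 and 127 in Neg against 208, 203 and 211 in 3×KD EpiLCs. In EpiLCs it was called higher in 3×KD by 0.76 (SE 0.038, adjusted p = 1.59e-10), and in ESCs the difference was 0.28 (SE 0.037). The ratio of *Nid1* to *Nid2* CPM was 0.332 ± 0.0117 in Neg against 0.552 ± 0.00868 in 3×KD ESCs, and 0.107 ± 0.0033 in Neg against 0.156 ± 0.0119 in 3×KD EpiLCs, so the groups did not overlap. The EpiLC call on *Nid2* was lost with the length offsets (0.50).

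The 2 large heparan sulfate proteoglycans were higher in 3×KD cells of both states and each passed the fold limit in 1 of them. *Hspg2*, perlecan, measured 161, 169.6 and 174 CPM in Neg against 212, 195 and 211 in 3×KD ESCs, and 72.1, 78.7 and 78.9 in Neg against 129, 119 and 117 in 3×KD EpiLCs. Its 3×KD difference was called in EpiLCs, at 0.67 (SE 0.05, adjusted p = 1.75e-08), and was 0.29 (SE 0.048) in ESCs. *Agrn*, agrin, which also organises the neuromuscular synapse, measured 143, 153 and 157 CPM in Neg against 244, 237 and 244 in 3×KD ESCs, and 71.8, 75.2 and 80.1 in Neg against 106, 101 and 100.3 in 3×KD EpiLCs. Its difference was called in ESCs, at 0.67 (SE 0.043, adjusted p = 2.05e-09), and was 0.43 (SE 0.045) in EpiLCs, with an interaction of -0.24 (SE 0.062, adjusted p = 0.0133) that did not pass.

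*Dag1*, the precursor of α- and β-dystroglycan, was at 157, 154 and 152 CPM in Neg against 252, 257 and 258 in 3×KD ESCs, and 186, 188 and 187 in Neg against 275, 260.0 and 266 in 3×KD EpiLCs. Its groups were separate, with the 3×KD libraries of both states above all Neg libraries. The 3×KD difference was 0.73 (SE 0.031, adjusted p = 2.16e-11) in ESCs and 0.51 (SE 0.03, adjusted p = 1.15e-09) in EpiLCs, the latter under the fold limit.

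Of the 16 integrin α and 8 β chains tested, 4 and 4 were called higher in 3×KD ESCs, where 8.5% of all genes were. In 3×KD EpiLCs 2 and 3 were called higher, where 7.88% of all genes were. The 2 α chains made up 12.5% of those tested, near the 12.3% of genes at 1 CPM or more called higher there. *Itga3*, the α3 chain of a laminin receptor, was measured at 15.1, 17.5 and 16.7 CPM in Neg against 32.1, 34.6 and 35.9 in 3×KD ESCs, and 55.6, 50.7 and 59.7 in Neg against 70.7, 70.8 and 71.8 in 3×KD EpiLCs. It climbed from group to group in the order given. The 3×KD difference was 1.05 (SE 0.071, adjusted p = 4.23e-09) in ESCs and 0.36 (SE 0.061, adjusted p = 0.000133) in EpiLCs, and only the first passed the fold limit. *Itga5*, the α5 chain of the main fibronectin receptor, was at 61.96, 65.1 and 61.8 CPM in Neg against 109, 108 and 105 in 3×KD ESCs, and 57.5, 54.6 and 56.6 in Neg against 74.4, 74.8 and 72.9 in 3×KD EpiLCs. The 3×KD ESCs stood well above the other 3 groups. The difference was 0.77 (SE 0.038, adjusted p = 1.25e-10) in ESCs and 0.40 (SE 0.038) in EpiLCs.

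*Itgav*, the αv chain of receptors that recognise an RGD motif in fibronectin and vitronectin, was at 39.2, 41.2 and 37.6 CPM in Neg against 65.98, 64.1 and 66.6 in 3×KD ESCs, and 26.9, 28.7 and 31.04 in Neg against 43.3, 42.8 and 39.2 in 3×KD EpiLCs. The difference was 0.74 (SE 0.057, adjusted p = 2.26e-08) in ESCs, or 1.20 with the length offsets, and 0.53 (SE 0.06) in EpiLCs. Among its β partners, *Itgb3* measured 6.205, 4.89 and 4.74 CPM in Neg against 9.58, 8.902 and 7.38 in 3×KD ESCs, and 1.36, 1.01 and 1.58 in Neg against 1.92, 2.75 and 2.12 in 3×KD EpiLCs. Its 3×KD difference was called in ESCs, at 0.72 (SE 0.17, adjusted p = 0.00202), and missed the p limit in EpiLCs, at 0.78 (SE 0.22, adjusted p = 0.0101). The ESC call on *Itgb3* was lost without Neg ESCs replicate 2 or 3 or without 3×KD ESCs replicate 1, with values between 0.64 and 0.84 over the libraries left out.

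*Itgb5* (ENSMUSG00000022817, chr16:33649988-33771137), which pairs with αv, stood at 42.02, 41.7 and 42.5 CPM in Neg against 49.3, 53.04 and 49.98 in 3×KD ESCs, and 21.9, 20.2 and 22.1 in Neg against 42.01, 38.9 and 38.8 in 3×KD EpiLCs. The Neg EpiLCs were the low group. The 3×KD difference was 0.27 (SE 0.052, adjusted p = 0.000407) in ESCs and 0.90 (SE 0.055, adjusted p = 1.66e-09) in EpiLCs. It is the only member on chromosome 16, where the median log2 difference of 454 genes was 0.30 in 3×KD against Neg cells in each state, while the medians of the other 19 chromosomes lay between -0.05 and 0.06. The share of the *Itgb5* value that this shift makes up was not tested. With the length offsets the ESC value was -0.08.

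*Itgb4*, which pairs only with α6 and anchors hemidesmosomes, was at 5.67, 5.23 and 4.44 CPM in Neg against 8.48, 11.1 and 9.54 in 3×KD ESCs, and 5.97, 3.83 and 4.99 in Neg against 7.07, 7.42 and 7.62 in 3×KD EpiLCs. The 3×KD libraries lay above the Neg libraries in each state. The difference was called in ESCs, at 0.94 (SE 0.15, adjusted p = 9.45e-05), and was 0.57 (SE 0.16, adjusted p = 0.0071) in EpiLCs. *Itga9*, a receptor chain for tenascin-C, measured 6.74, 8.603 and 6.37 CPM in Neg against 7.004, 6.34 and 7.32 in 3×KD ESCs, and 5.91, 6.78 and 7.71 in Neg against 12.4, 11.96 and 9.99 in 3×KD EpiLCs. Only the 3×KD EpiLCs stood apart, above every other library, with a difference of 0.75 (SE 0.13, adjusted p = 0.00024) in EpiLCs against -0.07 (SE 0.14) in ESCs. *Itgb7*, the partner of the α4 and αE chains, stood at 3.102, 2.68 and 2.6 CPM in Neg against 3.93, 3.78 and 4.44 in 3×KD ESCs, and 3.02, 3.76 and 3.16 in Neg against 4.59, 5.69 and 5.99 in 3×KD EpiLCs. It was called in EpiLCs, at 0.71 (SE 0.15, adjusted p = 0.00134), and was 0.54 (SE 0.16) in ESCs. The calls on *Itgb4*, *Itga9* and *Itgb7* were lost with the length offsets.

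The leukocyte chains were present at low levels. *Itgb2*, the β2 chain without which the αL, αM, αX and αD chains do not reach the surface, stood at 0, 0 and 0.153 CPM in Neg against 0.553, 0.427 and 0.849 in 3×KD ESCs, and 1.48, 0.738 and 0.759 in Neg against 0.621, 0.32 and 0.5 in 3×KD EpiLCs. It was called higher in 3×KD ESCs, but its Neg ESC group rested on 3 counts in 1 library, so no fold is given, and the call was lost without any 1 of 3 libraries (Neg ESCs replicate 1 or 2, or 3×KD ESCs replicate 3). *Itgal* measured 8.33, 8.67 and 8.77 CPM in Neg against 7.004, 6.097 and 7.12 in 3×KD ESCs, and 2.22, 1.95 and 2.28 in Neg against 3.54, 1.98 and 2.62 in 3×KD EpiLCs. *Itgam* went the other way between the states, at 1.68, 1.38 and 1.22 CPM in Neg against 1.04, 0.61 and 0.915 in 3×KD ESCs, and 7.39, 8.46 and 8.53 in Neg against 6.702, 6.27 and 6.18 in 3×KD EpiLCs. Neither was called between the lines. *Itgad* was at or under 0.201 CPM.

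Another 4 chains were called between states and not between lines. *Itga4*, a receptor chain for fibronectin and VCAM-1, was at 0.355, 0.344 and 0.408 CPM in Neg against 0.307, 0.183 and 0.196 in 3×KD ESCs, and 1.72, 1.41 and 2.09 in Neg against 2.54, 2.24 and 2.87 in 3×KD EpiLCs. *Itga7*, a laminin receptor chain of muscle, was at 4.25, 3.79 and 3.21 CPM in Neg against 2.95, 2.5 and 2.22 in 3×KD ESCs, and 0.739, 1.81 and 0.759 in Neg against 1.55, 1.79 and 1.75 in 3×KD EpiLCs. *Itgae*, which binds E-cadherin, was at 1.15, 0.895 and 1.53 CPM in Neg against 2.09, 1.46 and 1.96 in 3×KD ESCs, and 0.678, 0.403 and 0.379 in Neg against 0.683, 0.512 and 0.562 in 3×KD EpiLCs. *Itgb6*, another partner of αv, was at 3.19, 2.96 and 4.28 CPM in Neg against 3.44, 2.07 and 3.46 in 3×KD ESCs, and 6.04, 4.497 and 6.07 in Neg against 5.34, 5.31 and 5.06 in 3×KD EpiLCs. None of these 4 was called between 3×KD and Neg cells. The ranges of the lines overlapped in at least 1 state for *Itga7*, *Itgae* and *Itgb6*, while for *Itga4* the 3×KD libraries were the lower in ESCs and the higher in EpiLCs. The collagen receptor chains *Itga1*, *Itga10* and *Itga11*, with *Itga2b*, *Itga8* and *Itgb8*, stayed at or below 3.07 CPM in every library and were not called between the lines.

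From ESCs to EpiLCs, more members were called lower than higher, though 21 of the 42 values in Neg cells lay above 0. In Neg cells 6 of 42 members were called higher and 13 lower, where 9.78% and 11% of all genes were, and in 3×KD cells 7 were called higher and 11 lower, where 9.42% and 9.32% were. The 2 lines share no library in these comparisons, and 10 members were called lower in both, among them *Agrn*, *Fn1*, *Hspg2*, *Itgae*, *Itgal*, *Itgb3*, *Lama1*, *Lamb2* and *Nid1*. Another 5 were called higher in both: *Itga1*, *Itga3*, *Itga4*, *Itgam* and *Lamb1*. Of all genes, 7.19% were called lower and 6.26% higher in both. Among the 34 members at 1 CPM or more, 4 were called higher and 13 lower in Neg, where 13.9% and 16.7% of genes in that range were. In 3×KD cells 6 of the 34 were called higher and 11 lower, where 13.6% and 14.3% of those genes were. The median over the members was -0.01 in Neg and -0.22 in 3×KD cells, and over all genes 0.01 in each.

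Of the 7 other genes, 5 were called lower in Neg and 4 in 3×KD cells, where 11% and 9.32% of all genes were. In Neg cells the log2 change was -2.67 (SE 0.063, adjusted p = 2.25e-15) for *Nid1*, -2.41 (SE 0.042, adjusted p = 5.4e-17) for *Fn1*, -1.14 (SE 0.05) for *Hspg2*, -1.04 (SE 0.038) for *Nid2* and -1.001 (SE 0.045) for *Agrn*. In 3×KD cells the same contrast gave -2.39 (SE 0.056) for *Nid1*, -1.90 (SE 0.04) for *Fn1*, -0.76 (SE 0.048) for *Hspg2* and -1.24 (SE 0.043) for *Agrn*, all called, and -0.57 (SE 0.037) for *Nid2*, under the fold limit. *Lama1* changed by -2.01 (SE 0.081) in Neg and -2.35 (SE 0.09) in 3×KD cells. *Fn1* alone made up 52.6% of the members' summed loss in CPM in Neg cells and 53.1% in 3×KD cells.

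The main laminin receptor chains did not follow. *Itga3* was called higher by 1.75 (SE 0.069, adjusted p = 1.72e-12) in Neg and 1.06 (SE 0.063) in 3×KD cells. *Itga6* gave 0.55 (SE 0.039) and 0.49 (SE 0.037), just under the fold limit, and *Itgb1* gave 0.11 (SE 0.04) and 0.08 (SE 0.038). *Dag1* gave 0.28 (SE 0.031) and 0.06 (SE 0.03). Of the αv receptors, *Itgb3* was called lower in both lines, at -1.98 (SE 0.20) and -1.93 (SE 0.18). *Itgb5* was called lower in Neg, at -0.97 (SE 0.055, adjusted p = 2.14e-10), and gave -0.35 (SE 0.052) in 3×KD cells. *Itgav* was called lower in 3×KD cells, at -0.65 (SE 0.057, adjusted p = 6.51e-08), and gave -0.45 (SE 0.06) in Neg. *Itgal* changed by -1.997 (SE 0.17) and -1.31 (SE 0.17), and *Itgam* rose by 2.53 (SE 0.17) and 2.89 (SE 0.19). *Itga4* rose by 2.20 (SE 0.30) and 3.43 (SE 0.31). Like *Itgav*, 2 more members were called in 3×KD cells alone, *Itgb6*, at 0.81 (SE 0.20) against 0.65 (SE 0.20) in Neg, and *Itga9*, at 0.73 (SE 0.13) against -0.09 (SE 0.14). *Itga7* was called in Neg alone, at -1.76 (SE 0.28) against -0.59 (SE 0.27), and so was *Itgb2*, which the counts of Neg ESCs do not allow to be sized. *Itgae* gave -1.29 (SE 0.34) and -1.64 (SE 0.32). *Itga1*, at or below 2.06 CPM throughout, was called higher in both lines, at 1.96 (SE 0.54) and 1.93 (SE 0.48).

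Some of these calls rested on single libraries. The *Itga1* call was lost in Neg without any 1 of the 6 libraries but ESC replicate 1, and in 3×KD cells without replicate 3 of either state, with values between 1.41 and 2.83. The *Itgae* call in Neg was lost without ESC replicate 3 or EpiLC replicate 2 or 3, and the *Itgb6* call in 3×KD cells without ESC replicate 2 or EpiLC replicate 1 or 2. The length offsets also ended the calls on *Itga7* in Neg and *Itga9* and *Itgb6* in 3×KD cells, where upper-quartile factors ended that on *Itgav* (-0.58).

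**Figure D4:**
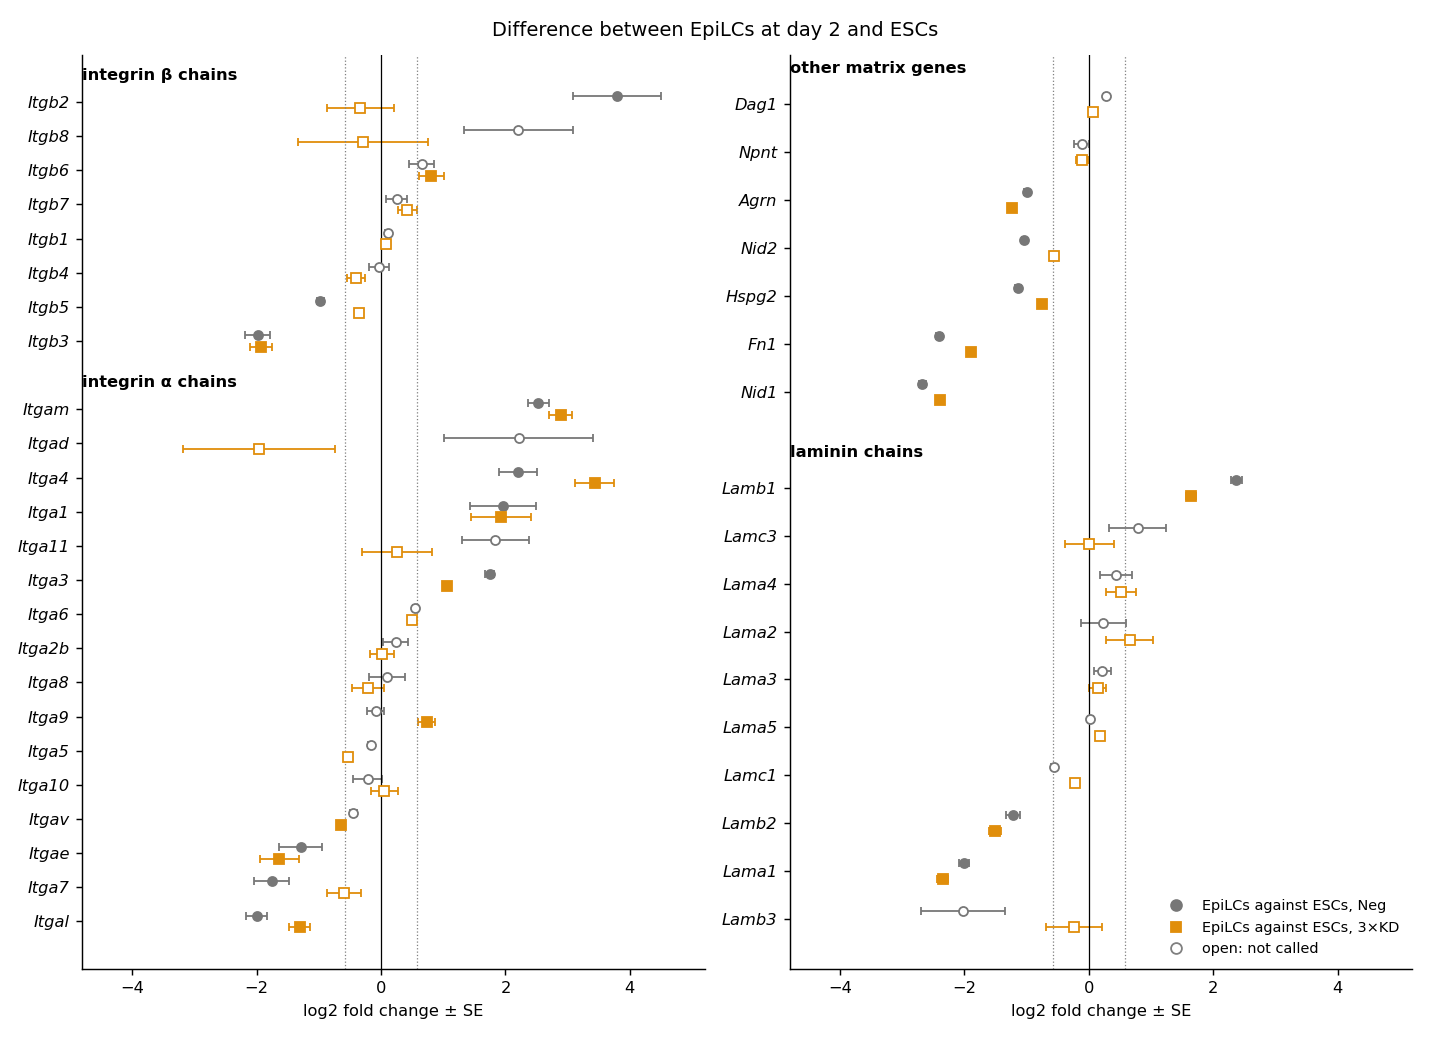
Log2 fold changes (horizontal axis, bars ± SE) of EpiLCs day 2 against ESCs in Neg (grey circles) and 3×KD cells (orange squares) for the members tested, 1 apart, with filled symbols for members called and dotted lines at ±0.58. *Nid1* and *Fn1* lie farthest left among the other matrix genes in both lines, and *Lamb1* lies farthest right among the laminin chains.

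Whether the 3×KD effect itself differed between the states was tested for each member. This interaction had an adjusted p under 0.01 in 11 of the 42 members (10% of all genes), 6 with a higher and 5 with a lower effect in EpiLCs. Among the 34 members at 1 CPM or more it passed in 10, where 16.8% of genes in that range passed. The effect was larger in EpiLCs for *Fn1*, at 0.51 (SE 0.057, adjusted p = 8.24e-06), *Itgb5*, at 0.63 (SE 0.076, adjusted p = 2.01e-05), *Nid2*, at 0.47 (SE 0.052), *Hspg2*, at 0.38 (SE 0.069), *Lamc1*, at 0.35 (SE 0.055), and *Itga9*, at 0.82 (SE 0.19). It was smaller for *Lamb1*, at -0.74 (SE 0.12, adjusted p = 0.000418), *Itga3*, at -0.69 (SE 0.093, adjusted p = 6.03e-05), *Itga5*, at -0.37 (SE 0.054), and *Dag1*, at -0.22 (SE 0.043), and for *Itgb2*. For the 5 members called in both states the interaction did not pass, with 0.28 (SE 0.085, adjusted p = 0.0292) for *Nid1*, -0.29 (SE 0.15) for *Lamb2*, -0.05 (SE 0.054) for *Itga6*, -0.02 (SE 0.055) for *Itgb1* and 0.00 (SE 0.15) for *Npnt*. Under the length offsets 0 of the 11 passed in edgeR's test, with 8 members at a higher and 9 at a lower effect at an unadjusted p under 0.05, while DESeq2 called 6 and 5, with *Agrn* in place of *Itgb2*.

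Alternative exons change what some of these proteins bind or signal. The fibronectin transcript can hold the extra domains A and B, each encoded by 1 exon and typical of cellular rather than plasma fibronectin. *Itga6* can hold an exon that gives the α6A tail, and without it the reading frame gives the α6B tail of early embryos. The coding bases of these exons, shown because the shares below rest on them, are written 5′ to 3′ from GRCm39.
*Fn1* extra domain A (chr1:71642819-71643088, minus strand, coding): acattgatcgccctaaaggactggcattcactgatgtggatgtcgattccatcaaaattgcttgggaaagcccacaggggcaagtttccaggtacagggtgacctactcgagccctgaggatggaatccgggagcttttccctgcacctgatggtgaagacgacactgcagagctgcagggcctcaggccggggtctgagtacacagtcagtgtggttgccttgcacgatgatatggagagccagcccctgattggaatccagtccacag
*Fn1* extra domain B (chr1:71652922-71653194, minus strand, coding): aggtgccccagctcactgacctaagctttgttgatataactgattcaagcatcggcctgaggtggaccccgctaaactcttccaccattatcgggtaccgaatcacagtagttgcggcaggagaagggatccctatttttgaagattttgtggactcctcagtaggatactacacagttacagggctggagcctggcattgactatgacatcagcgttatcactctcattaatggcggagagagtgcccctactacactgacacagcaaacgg
*Itga6* A exon, coding part (chr2:71683878-71683982, plus strand): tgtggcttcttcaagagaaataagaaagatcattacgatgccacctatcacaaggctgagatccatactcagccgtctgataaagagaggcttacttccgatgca

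The share of *Fn1* TPM in transcripts with the extra domain A exon, of those that hold or skip it, was 69.9, 73.2 and 72.5% in Neg against 69.5, 67.6 and 73.9% in 3×KD ESCs, and 77.3, 77.6 and 68.9% in Neg against 71.2, 74.2 and 72.7% in 3×KD EpiLCs. The ranges of the 4 groups overlapped, while the mean TPM behind them was 40.03 in Neg ESCs and 8.96 in Neg EpiLCs. For the extra domain B exon it was 60.4, 61.4 and 63.6% in Neg against 64.9, 60.8 and 64.8% in 3×KD ESCs, and 65.8, 76.6 and 65.8% in Neg against 66.7, 69.03 and 62.6% in 3×KD EpiLCs. The lines overlapped within each state, while both ESC groups lay below every Neg EpiLC library. Transcripts with the *Itga6* A exon made up 6.42, 4.74 and 0% in Neg against 0, 2.71 and 0% in 3×KD ESCs, and 5.02, 3.02 and 3.44% in Neg against 0, 0 and 0.757% in 3×KD EpiLCs. Nearly all of the TPM in each group was thus in transcripts that skip the exon, among them *Itga6-203*, which has no annotated coding sequence and held 35.9% to 39.6% of the *Itga6* TPM of a library. In EpiLCs the small A share of every Neg library lay above those of 3×KD, whereas in ESCs the lines overlapped. For *Itga3*, the exon of the α3A tail was in at least 90.3% of the TPM of transcripts that hold or skip it in every library. In Neg ESCs these transcripts held 2.16 of the 3.12 mean TPM of *Itga3*. The muscle exon of *Itgb1*, which gives the β1D tail, was at 0% in all 12. These shares are estimates of the quantifier from single-end reads, and no test was run on them.

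**Figure D5:**
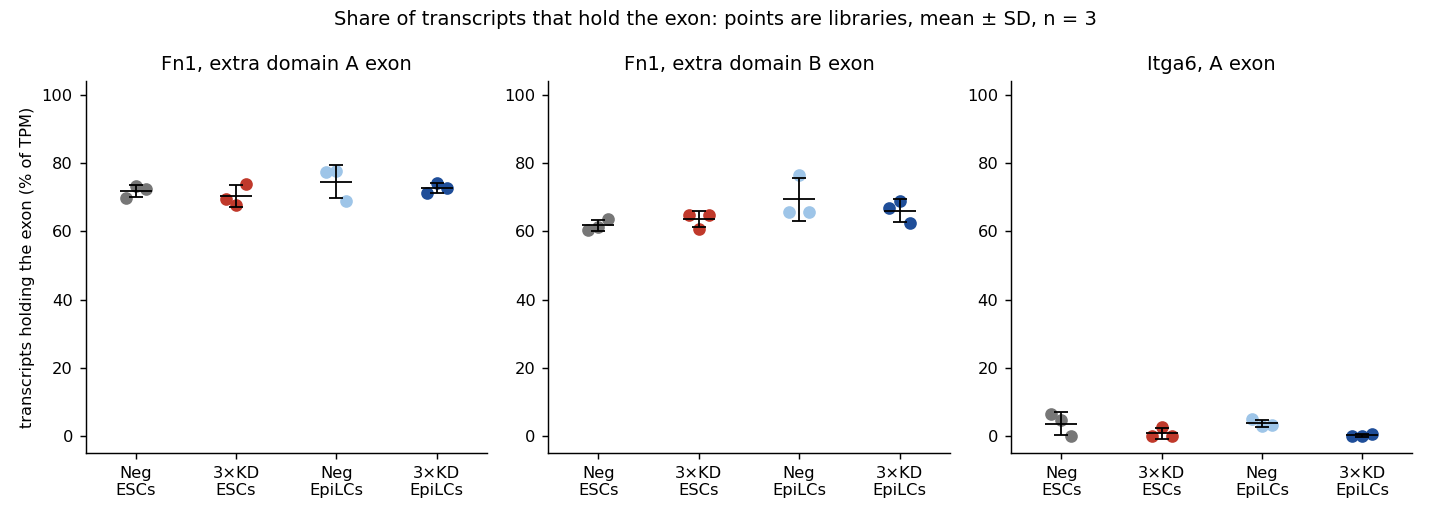
Share (vertical axis, % of the TPM of transcripts that hold or skip the exon) of *Fn1* transcripts with the extra domain A exon or the extra domain B exon and of *Itga6* transcripts with the A exon, with points for libraries and mean ± SD in black (n = 3 per group). The *Fn1* shares lie between 60.4% and 77.6% and the *Itga6* shares at or below 6.42%.

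Per length, *Fn1* was the highest member in Neg ESCs at 57.1 ± 12.7 TPM, followed by *Nid2* at 41.1 ± 5.71. Below them, *Dag1* (21.1 ± 3.51), *Lamc1* (20.2 ± 3.81), *Agrn* (17.01 ± 3.43) and *Itgb5* (16.8 ± 3.78) stood within 1 SD of their neighbours, and so did *Itga6* (13.9 ± 2.79), *Itga5* (13.4 ± 4.92), *Lama5* (11.4 ± 2.23) and *Itgb1* (10.8 ± 1.85). Over transcripts of at least 1000 bases *Itgb5* was at 10.2 ± 1.94 and *Agrn* at 15.8 ± 2.64, no longer within 1 SD. *Fn1* was then at 44.3 ± 10.8, and *Nid2*, at 34.2 ± 6.73, lay within 1 SD of *Fn1*. In Neg EpiLCs the order was led by *Dag1* (31.4 ± 1.71), then *Nid2* (25.1 ± 0.93) and *Itga6* (24.03 ± 2.25), which did not differ beyond their spread. Over transcripts of at least 1000 bases *Itga6* (23.97 ± 2.34) lay above *Nid2* (19.7 ± 2.57) there by more than 1 SD. *Fn1* stood at 12.5 ± 1.38, rank 8 of 44. In 3×KD cells *Fn1* led in ESCs (75.5 ± 12.2), and *Dag1* and *Itga6* led in EpiLCs (41.7 ± 6.66 and 37.5 ± 6.78), within their spread of each other.

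The genes that work with the members were taken from 4 further lists. For these lists and the markers further on, the shares of all genes tested serve as the background. They were 8.5% called higher and 6.76% lower in 3×KD against Neg ESCs, and 7.88% and 5.35% in EpiLCs. From ESCs to EpiLCs they were 9.78% and 11% in Neg and 9.42% and 9.32% in 3×KD cells. Of 25 genes for basement membrane collagens and their folding and cross-linking, 9 were called higher in 3×KD ESCs and 6 in 3×KD EpiLCs, with medians of 0.55 and 0.38, and the others were not called. *Tinagl1*, a matricellular protein of basement membranes, had the largest difference, at 2.08 (SE 0.082, adjusted p = 1.08e-11) in ESCs and 2.14 (SE 0.16, adjusted p = 1.73e-08) in EpiLCs. The peroxidasin *Pxdn*, which cross-links collagen IV, gave 1.51 (SE 0.08) in ESCs, and the prolyl hydroxylase subunit *P4ha1* 1.30 (SE 0.043). In EpiLCs the collagen chaperone *Serpinh1* gave 1.27 (SE 0.06) and the lysyl hydroxylase *Plod1* 1.15 (SE 0.074). From ESCs to EpiLCs 5 of the 25 were called higher and 3 lower in Neg, 2 and 3 in 3×KD cells. *Tinagl1* changed by -3.87 (SE 0.14) and -3.81 (SE 0.094). *Col18a1*, a collagen of basement membranes, rose by 2.61 (SE 0.062) in Neg and 2.35 (SE 0.059) in 3×KD cells.

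Of 31 tested genes for other matrix ligands and laminin-binding proteins, 16 were called higher and 1 lower in 3×KD ESCs, and 12 were called higher in 3×KD EpiLCs (medians 0.85 and 0.53). The largest differences in ESCs were those of the fibrillin *Fbn2*, at 2.17 (SE 0.12, adjusted p = 4.68e-10), and of *Fras1*, at 1.98 (SE 0.16), and *Frem2*, at 1.89 (SE 0.13), which form a complex under embryonic epithelia. In EpiLCs they were those of the hemicentin *Hmcn1*, at 1.86 (SE 0.19), the fibulin *Fbln2*, at 1.33 (SE 0.28), and osteopontin, *Spp1*, at 1.31 (SE 0.043, adjusted p = 2.32e-12). Between the states 8 were called higher and 9 lower in Neg, and 7 and 10 in 3×KD cells. *Ntn1*, netrin-1, changed by -5.59 (SE 0.10) in Neg and -4.84 (SE 0.10) in 3×KD cells, and thrombospondin-1, *Thbs1*, rose by 4.27 (SE 0.12) and 3.79 (SE 0.11).

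The integrin adhesome, the 40 listed proteins that couple integrins to actin and kinases inside the cell, had medians near that of all genes. Of the 40, 2 were called higher in 3×KD ESCs and 5 in 3×KD EpiLCs (5.0% and 12.5%), with medians of 0.12 and 0.00. *Parvg* and *Tns2* were the 2 called in ESCs, at 1.38 (SE 0.37) and 1.34 (SE 0.21). In EpiLCs *Parvg* gave 1.05 (SE 0.30), *Parvb* 0.84 (SE 0.12) and *Tns2* 0.72 (SE 0.19). Between the states 10 were called higher and 5 lower in Neg, and 5 and 6 in 3×KD cells, with *Parvb* at -2.12 (SE 0.11) and the kindlin *Fermt1* at 2.54 (SE 0.40) in Neg.

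Of 24 tested genes of the dystroglycan complex and of its sugar chain, 4 were called higher and 3 lower in 3×KD ESCs, and 4 and 2 in 3×KD EpiLCs. *Large2*, a glycosyltransferase that extends the laminin-binding sugar of dystroglycan, averaged 7.07, 20.7, 6.61 and 19.8 CPM in the groups in this order (Neg, then 3×KD, in ESCs and then in EpiLCs), a difference of 1.54 (SE 0.11, adjusted p = 1.03e-08) and 1.58 (SE 0.11, adjusted p = 9.17e-09). *Sgce*, a sarcoglycan, gave 1.43 (SE 0.10) and 1.32 (SE 0.10), and *Sntb1*, a syntrophin, -1.18 (SE 0.074) and -1.24 (SE 0.073). Between the states 3 were called higher and 1 lower in Neg, and 3 and 2 in 3×KD cells, with *Dtna*, dystrobrevin-α, rising by 3.07 (SE 0.15) in Neg.

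Endoderm and mesenchyme make large amounts of basement membrane, so their markers were read beside the members. Of 17 tested markers of primitive and parietal endoderm, 2 were called higher and 1 lower in 3×KD ESCs, and 5 lower in 3×KD EpiLCs. Their summed level was 46.9 to 51.2 CPM in Neg against 58.1 to 59.9 in 3×KD ESCs, and 152 to 168 in Neg against 135 to 138 in 3×KD EpiLCs. *Gata6* averaged 5.36, 9.18, 9.53 and 4.68 CPM in these groups, *Sox17* and *Gata4* averaged at most 4.68 and 11.2 CPM in a group, and *Afp* and *Apoa1* at most 0.218 and 0.149. The markers named here hold the lesser part of the EpiLC sums. From ESCs to EpiLCs 5 of the 17 were called higher and 0 lower in Neg, and 4 higher and 4 lower in 3×KD cells. Of 12 mesoderm and mesenchyme markers, 3 were called higher in 3×KD ESCs and 1 in 3×KD EpiLCs. Their sum was 36.7 to 38.7, 60.4 to 65.0, 30.1 to 32.8 and 38.8 to 43.2 CPM in the same order of groups. *Pdgfrb*, at 7.16, 23.7, 2.904 and 8.62 CPM, carried much of it, and the fibroblast collagen *Col3a1* averaged at most 0.084 in a group. The part of these cells in the members' differences was not tested.

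Of 9 tested trophoblast markers, 3 were called higher and 1 lower in 3×KD ESCs and 4 and 1 in 3×KD EpiLCs, with a sum of 79.1 to 83.1, 100.9 to 116, 41.4 to 42.9 and 72.3 to 75.4 CPM in the same order. Of 7 neuroectoderm markers, 1 was called higher and 1 lower in ESCs and 1 and 2 in EpiLCs, with sums of 122 to 133, 119 to 122, 139 to 144 and 80.5 to 84.1 CPM. Of 7 markers of 2-cell-like cells, 1 was called lower in 3×KD ESCs and 3 higher in 3×KD EpiLCs, with sums of 265 to 282, 241 to 259, 220 to 231 and 413 to 451 CPM. Of the naive genes 7 of 12 were called lower in 3×KD ESCs, and in 3×KD EpiLCs 5 were called higher and 2 lower. Of the formative genes 2 were called higher and 3 lower in 3×KD ESCs and 8 of 10 lower in 3×KD EpiLCs. Of 6 genes of general pluripotency, 2 were called lower in 3×KD EpiLCs. How far the members' differences go along with the cell state was not tested.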

How the data were processed

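Single-end reads had been trimmed (Trim Galore 0.6.7), mapped to GRCm39 (STAR 2.7.9a, Ensembl release 111) and quantified (Salmon 1.10.1) by the authors. The deposited values, 1 per transcript and library, are unscaled estimated counts. The deposited TPM are scaled for length and depth by Salmon. The methods describe rRNA depletion, the labels polyA RNA. In the paper the estimates were summarized per gene with tximport and tested with DESeq2. Length offsets of the kind tximport supplies were used here only as an alternative in edgeR and were not joined with DESeq2.

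Here estimated counts were summed per gene, rounded, TMM-normalized and fitted with edgeR 4.0.16 (R 4.3.3, quasi-likelihood, 4 groups in 1 fit, 25446 genes with at least 10 counts, Benjamini-Hochberg). SE is the log2 change over the square root of F. Alternatives were DESeq2 1.42.0, other scalings, filters and limits, transcript-length offsets, robust estimation, a replicate block and each library left out. The model was tested on simulated counts. The values of 1 member are not reported here, though counts include it. Per-library values are printed for members called in at least 1 comparison of 2 groups that average 1 CPM or more, and for *Itgb2*, and list genes are named only when among the 3 largest called changes of their list (other names were chosen with values seen). Members and lists were chosen with earlier results of these data known. Annotation was GENCODE vM39, which holds 99.0% of the genes. Overlapping and antisense genes are uncertain, since the counting strand rests on the library protocol alone.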

Additional observations from a re-analysis of the deposited data

Results flagged for a closer look

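For 11 members the 3×KD effect differed between ESCs and EpiLCs day 2 by the interaction test (adjusted p under 0.01). Values are the effect in EpiLCs minus that in ESCs on the log2 scale, after the 2 effects themselves. The effect was larger in EpiLCs for 6. *Itga9* went from -0.07 to 0.75, a difference of 0.82. *Itgb5* went from 0.27 to 0.90, a difference of 0.63. *Fn1* went from 0.42 to 0.94, a difference of 0.51. *Nid2* went from 0.28 to 0.76, a difference of 0.47. *Hspg2* went from 0.29 to 0.67, a difference of 0.38. *Lamc1* went from 0.05 to 0.40, a difference of 0.35.

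The effect was smaller in EpiLCs for 5. For *Lamb1* it was 1.01 in ESCs and 0.28 in EpiLCs, a difference of -0.74. For *Itga3* it was 1.05 and 0.36, a difference of -0.69. For *Itga5* it was 0.77 and 0.40, a difference of -0.37. For *Dag1* it was 0.73 and 0.51, a difference of -0.22. For *Itgb2* the fitted difference was -4.12, which rests on a Neg ESC group with 2 libraries at 0 counts and is no measure of size. With transcript-length offsets 0 of the 11 members passed in edgeR's test, and interaction calls over all genes fell from 2553 to 731. The calls on *Itga9* and *Itgb2* were lost without any 1 of 8 and 5 of the 12 libraries, in that order. The causes were not tested.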

How the results depend on the processing

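Over 75 called pairs of a member and a comparison, 0 values changed sign under any alternative, and 46 pairs were called under every one that kept the call limits. DESeq2 lost 2 pairs, leaving out a library lost 8 in at least 1 of the refits, and transcript-length offsets lost 28, with fewer calls over all genes too (2789 for 3×KD against Neg ESCs, from 2164 higher and 1721 lower). The cause was not tested. Members called higher in 3×KD ESCs (14) became 22 at an adjusted p under 0.05 with no fold limit and 6 at a fold of 2, and in 3×KD EpiLCs (12) 22 and 4. Members called lower in 3×KD ESCs (0 by edgeR) became 1 (*Lama1*) under RLE factors, library size alone, filterByExpr, the 2 groups alone or DESeq2, and 2 at an adjusted p under 0.05, with 0 to 1 over the libraries left out. In 3×KD EpiLCs (1) it became 2 at an adjusted p under 0.05 and 0 at a fold of 2. Members higher in EpiLCs became 11 in Neg (from 6) at an adjusted p under 0.05, and 4 in 3×KD cells (from 7) with length offsets, which left 0 higher and 0 lower among the interaction calls (from 6 and 5). Replicate numbers did not pair the libraries (18 correlations between -0.14 and 0.10, 0 of 12 libraries closest to their own number). With the replicate block the counts of members called higher and lower were 14 and 0, 12 and 1, 7 and 13, 7 and 11, and 5 and 5 in the order of the comparisons, and 1 pair was lost. Depth limits members under about 1 CPM, such as *Itgb2*, *Lamb3* and *Itga1*, whose calls rest on few counts.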
